A study of Mus musculus with 5 samples.

Results

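The genes described here encode transcription factors of the surface ectoderm, the embryonic epithelium that forms the epidermis, and of the extraembryonic ectoderm, the precursor tissue of the placenta. They were Trp63, Tfap2a, Tfap2b, Tfap2c, Gata3, Dlx3, Dlx5, Grhl2, Grhl3 and Elf5, chosen by name with earlier results of these data known. They made up 10 of the 32285 features counted in each library. EpiSCs, the mouse epiblast stem cells derived from the post-implantation embryo, were differentiated for 3 days with 1 µM of the Wnt agonist CHIR99201 and 8 ng/ml BMP in every condition. In addition, the cultures received 0, 0.75, 3 or 12 ng/ml FGF2, or 30 nM of the FGF receptor inhibitor AZD4547 (FGFRi), for which no FGF2 dose is stated. A single wild-type cell line was used, and 1 single-cell RNA sequencing library was made per condition, so that condition and library cannot be told apart and no test between conditions was possible, since the cells of a library are not replicates. All intervals below are exact 95% intervals that cover counting error only.

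Surface ectoderm and trophoblast lie at the edges of the early conceptus and share many of their regulators. In the embryo, BMP favors surface ectoderm over neural ectoderm, and AP-2 factors (Tfap2a, Tfap2b and Tfap2c) act in the non-neural ectoderm early, often together with GATA and DLX factors. The p63 protein, encoded by Trp63, maintains the epidermal lineage, the grainyhead-like factors Grhl2 and Grhl3 regulate epithelial junctions and neural tube closure, and Elf5 maintains trophoblast stem cells.

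RefSeq promoter windows on GRCm38.p6 were given for 5 of the 10 genes, and the 250 bases before a start site (for Gata3 and Tfap2a, a start within the annotated gene) are shown for 3 genes with contrasting dose patterns. Tfap2a and Gata3 had their highest level with the FGFRi, and Grhl3 had its highest level at 0.75 ng/ml FGF2. The Gata3 window lies on the minus strand at chr2:9878601-9878850, the Tfap2a window on the minus strand at chr13:40734921-40735170 and the Grhl3 window on the minus strand at chr4:135573633-135573882. The Gata3 window lies wholly in exons of the antisense gene Gm13256, and 242 of the 250 bases of the Tfap2a window lie in exons of the antisense gene Gm26688. Capitals mark matches to the AP-2 motif.
Gata3: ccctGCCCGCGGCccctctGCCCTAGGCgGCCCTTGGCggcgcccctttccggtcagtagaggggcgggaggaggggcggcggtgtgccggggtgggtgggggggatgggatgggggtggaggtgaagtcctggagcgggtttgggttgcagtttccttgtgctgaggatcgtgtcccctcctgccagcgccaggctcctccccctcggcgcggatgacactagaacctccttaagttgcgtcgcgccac
Tfap2a: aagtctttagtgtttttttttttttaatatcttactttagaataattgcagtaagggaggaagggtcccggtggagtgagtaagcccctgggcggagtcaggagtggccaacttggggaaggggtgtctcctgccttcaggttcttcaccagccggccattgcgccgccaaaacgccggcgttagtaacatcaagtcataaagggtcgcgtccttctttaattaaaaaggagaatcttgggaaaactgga
Grhl3: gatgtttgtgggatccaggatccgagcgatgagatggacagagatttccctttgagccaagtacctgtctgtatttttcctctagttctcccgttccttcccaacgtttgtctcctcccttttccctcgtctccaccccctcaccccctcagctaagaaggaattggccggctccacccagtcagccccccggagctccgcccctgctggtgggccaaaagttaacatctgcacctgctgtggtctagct
The Gata3 window held 3 matches to the AP-2 motif GCCNNNGGC, with first bases at -246, -231 and -221 from the start site. A match to this motif was found in 13.7% of 32851 promoter windows of the same length. GC made up 70.0% of the bases of the Gata3 window, 47.6% of the Tfap2a window and 56.0% of the Grhl3 window, against a median of 52.4% over all windows. The Tfap2a and Grhl3 windows held no match on either strand to the 6 motifs searched, which were also AACCNGTT for grainyhead-like factors (in 1.79% of all windows), AGATAA for GATA factors (9.99%), CTTTGAT for TCF/LEF factors (3.21%), GGAATG for TEAD factors (12.6%) and TTTATGG for CDX factors (2.43%). No such window was used for Trp63, Tfap2c, Dlx3, Dlx5 and Grhl2. A second Tfap2a window, on the minus strand at chr13:40733796-40734045, is not shown. Its GC content was 60.4%, and it also held no match to the 6 motifs. The windows of Tfap2b and Elf5 are not shown either. The Tfap2b window held no match, and each Elf5 window held 1, to the TEAD motif at -173 and to the TCF/LEF motif at -52.

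The 10 genes lie on 8 chromosomes (GENCODE vM21 on GRCm38). On the plus strand are Tfap2b at chr1:19208914-19238576, Tfap2c at chr2:172549593-172558622, Elf5 at chr2:103411688-103450989, Dlx3 at chr11:95120119-95125296, Grhl2 at chr15:37233036-37363569 and Trp63 at chr16:25683763-25892102. On the minus strand are Gata3 at chr2:9857078-9890034, Grhl3 at chr4:135541888-135573630, Dlx5 at chr6:6877805-6882085 and Tfap2a at chr13:40715302-40738376. Each position spans the whole gene with its exons, introns and untranslated regions, and the UMIs were counted per gene and not per exon.

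After filtering, between 1696 and 2725 cells were retained per library, 10653 of 15375 deposited barcodes in all, from libraries of 50167816 to 84046746 UMIs, with median UMI counts per cell between 24408 and 29661.5. In all, 7 cell barcodes occurred in more than 1 library among the retained cells, and no doublets were called. The names of the tissues were checked against their defining genes. The simple epithelial keratin genes Krt8 and Krt18 were abundant, with Krt8 at 942, 823, 599.6, 326 and 328 CPM (UMIs per 1000000 UMIs of a library) in the order FGFRi, 0, 0.75, 3 and 12 ng/ml FGF2, and Krt18 at 1349.8, 1082, 660.5, 316 and 305 CPM. The epidermal keratin gene Krt5 did not exceed 1.72 CPM, and Krt14 was found at 10.7, 2.29, 1.04, 0.402 and 0.283 CPM. Among the genes that define extraembryonic ectoderm, Eomes did not exceed 1.98 CPM, Esrrb 0.334 CPM and Elf5 0.217 CPM, whereas Cdx2, which is also a gene of the posterior embryo, was found at 4.64, 109, 188, 218 and 185 CPM. The giant cell gene Prl3d1 and the syncytiotrophoblast gene Syna had no UMI in any library. Other listed genes of these tissues were found. Of 15 genes of extraembryonic ectoderm and trophoblast stem cells, 6, 8, 8, 6 and 6 had at least 5 CPM in the same order. Of 11 genes of differentiated trophoblast, 4, 4, 4, 2 and 2 did. The simple epithelial genes were thus abundant, but the trophoblast stem cell genes Eomes, Esrrb and Elf5 were near 0, and the transcription factors are described by name rather than as markers of extraembryonic ectoderm.

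The level of each gene with the FGFRi and at each FGF2 dose was first described over all cells of a library. For the AP-2 genes, Tfap2a, which encodes AP-2α and acts in surface ectoderm and neural crest, stood at 93.3, 47.6, 36.1, 11.8 and 6.39 CPM in the order FGFRi, 0, 0.75, 3 and 12 ng/ml FGF2. It had its highest level with the FGFRi and was lower at each further dose. Tfap2c, which encodes AP-2γ and acts in trophoblast and germ cell precursors, stood at 20.8, 44.6, 46.9, 30.4 and 19.9 CPM in the same order. Its highest levels were at 0 and 0.75 ng/ml FGF2, and its levels with the FGFRi and at 12 ng/ml did not differ beyond counting error, with a ratio of 1.05 (95% interval 0.964 to 1.14). In cells with at most 5% mitochondrial UMIs, however, the log2 change of Tfap2c from the FGFRi to 12 ng/ml was 0.22, outside the counting interval of the value over all retained cells and in the other direction. Tfap2b, which encodes AP-2β, had 4, 10, 7, 7 and 0 UMIs over all retained cells of the libraries, and 3 counts, taken as the limit that a count of 0 allows, would be 0.0424 CPM at 12 ng/ml.

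Trp63 stood at 22.2, 13.9, 12.1, 3.00 and 1.07 CPM in the order FGFRi, 0, 0.75, 3 and 12 ng/ml FGF2. Its level was highest with the FGFRi, and the largest step between neighboring doses was from 0.75 to 3 ng/ml, where it was 4.02-fold (95% interval 3.45 to 4.72) lower at the higher dose. Gata3, a regulator of trophectoderm and of hair follicle and immune cell fates, stood at 15.5, 11.8, 7.69, 4.33 and 4.10 CPM, again with its highest level with the FGFRi. Its levels at 3 and 12 ng/ml did not differ beyond counting error, with a ratio of 12 over 3 ng/ml of 0.945 (95% interval 0.799 to 1.12).

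Of the distal-less genes, Dlx3, which acts in skin and placenta, stood at 15.6, 15.8, 12.4, 5.56 and 2.88 CPM in the order FGFRi, 0, 0.75, 3 and 12 ng/ml FGF2. Its levels with the FGFRi and at 0 ng/ml FGF2 did not differ beyond counting error, with a ratio of 0 ng/ml over the FGFRi of 1.02 (95% interval 0.921 to 1.12). Dlx5, which acts at the border of neural and non-neural ectoderm and in craniofacial development, stood at 3.53, 10.3, 15.4, 12.7 and 4.95 CPM. In contrast to Trp63, Tfap2a and Gata3, it was lowest with the FGFRi and highest at 0.75 ng/ml.

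Grhl2, a regulator of epithelial cadherin and claudin genes, stood at 12.7, 14.9, 15.0, 8.99 and 7.35 CPM in the order FGFRi, 0, 0.75, 3 and 12 ng/ml FGF2, with its highest levels at 0 and 0.75 ng/ml. Grhl3, which acts in the epidermal barrier, stood at 9.12, 13.6, 19.8, 14.2 and 9.81 CPM, with its highest level at 0.75 ng/ml and its lowest levels with the FGFRi and at 12 ng/ml. The ratio of Grhl3 at 12 ng/ml over the FGFRi was 1.08 (95% interval 0.953 to 1.22). Elf5 had 2, 4, 17, 14 and 11 UMIs in the same order, and no neighboring pair in the order of its levels differed beyond counting error. The 10 genes thus fell into those highest with the FGFRi (Trp63, Tfap2a and Gata3), those highest at 0 or 0.75 ng/ml FGF2 (Tfap2c, Dlx5, Grhl2 and Grhl3), Dlx3 with like levels with the FGFRi and at 0 ng/ml, and Tfap2b and Elf5 near 0. In sums over a library, fewer cells of a type and less RNA per cell cannot be told apart.

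**Figure D1:**
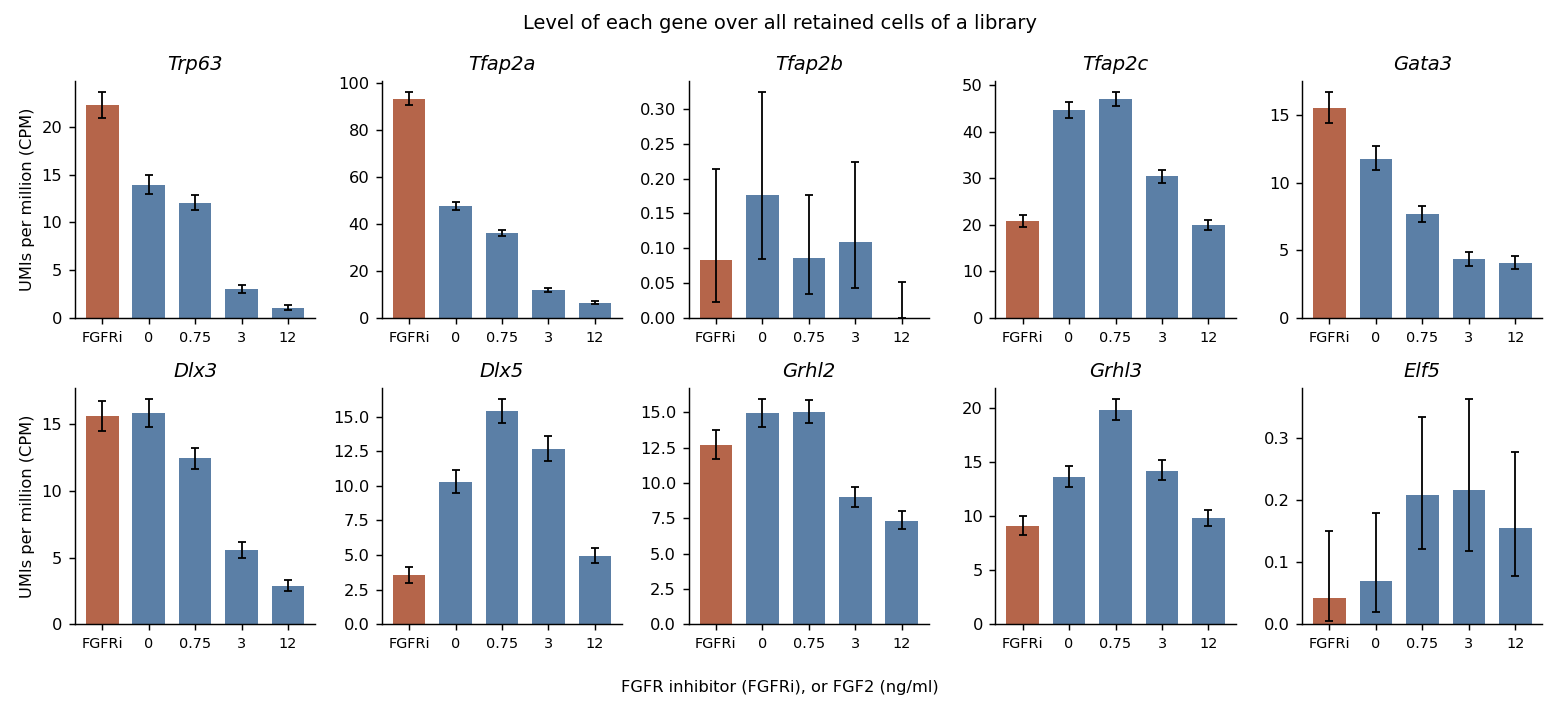
Level of each gene in CPM over all retained cells of a library, with the FGFRi (red) or at 0, 0.75, 3 and 12 ng/ml FGF2 (blue). Bars are 1 library each, lines are exact Poisson 95% intervals, and each panel has its own scale from 0. Tfap2a is highest with the FGFRi (93.3 CPM) and lowest at 12 ng/ml (6.39 CPM), whereas Dlx5 is highest at 0.75 ng/ml with 15.4 CPM.

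To set these genes against the rest of the transcriptome, genes were counted by a rule of size, at least 2-fold between a pair of libraries of which 1 or both had 5 CPM or more, and 8 of the 10 genes reached this level. Between 0 and 12 ng/ml FGF2, 7 genes were lower at 12 ng/ml by this rule, against 4.69% of the 9931 genes with at least 5 CPM. Of the 7, Trp63, Gata3, Dlx3 and Dlx5 were below 5 CPM at 12 ng/ml and entered only through 0 ng/ml, where they were high. The count is thus partly set by the minimum of 5 CPM. Trp63 was 13.0-fold (95% interval 10.2 to 16.6) lower, Tfap2a 7.45-fold (95% interval 6.74 to 8.25) and Dlx3 5.48-fold (95% interval 4.71 to 6.42). Gata3 was 2.88-fold (95% interval 2.50 to 3.31) lower. Tfap2c, Dlx5 and Grhl2 were between 2.03- and 2.24-fold lower, and the lower bounds of their intervals were 2.10, 1.82 and 1.82. Grhl3 did not pass the rule, with a level 1.39-fold (95% interval 1.25 to 1.54) lower at 12 ng/ml. Over the 8 genes, the median log2 change was -1.23, beside 0.0120 over all genes with at least 5 CPM.

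Between neighboring doses, none of the 8 genes passed the rule from 0 to 0.75 ng/ml FGF2 (2.02% of all genes). From 0.75 to 3 ng/ml, Trp63, Tfap2a and Dlx3 were lower at 3 ng/ml (0.729% of all genes were). From 3 to 12 ng/ml, only Dlx5 passed, 2.56-fold (95% interval 2.26 to 2.91) lower at 12 ng/ml (0.0725% of all genes were lower), and Trp63 and Gata3 were below 5 CPM in both libraries. Between the FGFRi and 0 ng/ml FGF2, Tfap2c was 2.14-fold (95% interval 1.99 to 2.31) and Dlx5 2.91-fold (95% interval 2.45 to 3.47) higher at 0 ng/ml (2.98% of all genes were), and over all cells no gene of the group was higher with the FGFRi by the rule (6.07% of all genes were). Tfap2a came close, with a level 1.96-fold (95% interval 1.87 to 2.06) higher with the FGFRi. Between the FGFRi and 12 ng/ml, Trp63, Tfap2a, Gata3 and Dlx3 were higher with the FGFRi (13.5% of all genes were), whereas Tfap2c, Grhl2 and Grhl3 differed by less than 2-fold. These comparisons share libraries and are given side by side.

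The share of cells with a UMI was compared after each cell was thinned to 10000 UMIs, which left out 94 of the 10653 cells. Tfap2a was found in 51.4, 29.5, 24.1, 8.23 and 4.63% of the cells in the order FGFRi, 0, 0.75, 3 and 12 ng/ml FGF2. Without thinning, the shares were 71.5, 49.7, 39.2, 16.7 and 9.98%. Trp63 was found in 16.1, 11.1, 9.68, 2.55 and 1.21% of the thinned cells, and in 26.3, 23.5, 17.8, 5.74 and 2.20% without thinning. Like the levels, the shares of cells with Trp63 and Tfap2a were highest with the FGFRi and lowest at 12 ng/ml. Tfap2c was found in 14.6, 25.6, 28.2, 18.1 and 12.8% and Grhl3 in 7.70, 11.9, 15.5, 12.4 and 9.05% of the thinned cells, with the highest shares at 0.75 ng/ml.

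Free RNA can leave UMIs of a gene in cells that lack its expression. Cells with a Tbx6 UMI and no Cdh1 UMI, as in presomitic mesoderm, were therefore used for comparison, at the same 10000 UMIs. The number of such cells was 3 with the FGFRi, too few for a share, and 110, 334, 617 and 1010 along the FGF2 doses. In these cells, Tfap2a was found in 1.82, 2.10, 1.13 and 0.990% at 0, 0.75, 3 and 12 ng/ml, and Trp63 in at most 0.299%. Gata3 was found in 2.73, 2.99, 2.59 and 3.66%, so that its share over all cells at 12 ng/ml, 3.46%, was no higher than in this comparison class and does not by itself set the gene apart from free RNA. The comparison class was not checked for cells that express Gata3 or the other genes. Grhl3 had 6.36, 5.39, 5.83 and 4.55% in the same cells, the highest of the group at 0.75, 3 and 12 ng/ml, and Dlx5 did not exceed 0.648%. Over all cells at 3 ng/ml, Grhl3 and Dlx5 stood at 14.2 and 12.7 CPM, so their shares in this class did not follow their library levels. The source of the UMIs in this class was not tested. The median UMI count of the comparison class before thinning was between 26904.5 and 31088.5 along the doses, close to that of the libraries.

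Next, cells were divided by their cadherin transcripts, since Cdh1 (E-cadherin) marks epithelial cells and Cdh2 (N-cadherin) marks mesenchymal and neural cells. A cell was taken as positive from 1 UMI. Cdh1+ Cdh2- cells made up 36.3, 43.3, 38.7, 20.8 and 14.1% of the cells in the order FGFRi, 0, 0.75, 3 and 12 ng/ml FGF2, and Cdh1- Cdh2+ cells 36.7, 28.7, 38.8, 53.9 and 58.7%. At 0, 0.75, 3 and 12 ng/ml FGF2, all genes of the group with at least 5 CPM in either state were at least 2-fold higher in Cdh1+ Cdh2- cells. These were 8, 8, 7 and 7 genes, against 10.2, 8.63, 7.13 and 8.1% of all genes. At 12 ng/ml, each of them reached 5 CPM only in Cdh1+ Cdh2- cells, the state where it was high. The same held at 3 ng/ml except for Grhl3, at 5.87 CPM in Cdh1- Cdh2+ cells. Gata3 was left out at these doses, with 4.33 CPM in Cdh1+ Cdh2- against 3.69 in Cdh1- Cdh2+ cells at 3 ng/ml, and 4.10 against 3.85 at 12 ng/ml. At 0.75 ng/ml, Trp63, Gata3, Dlx3, Dlx5 and Grhl2 likewise reached 5 CPM only in Cdh1+ Cdh2- cells. At 0 ng/ml, Trp63, Dlx5 and Grhl2 did. With the FGFRi, 6 of 8 were higher (5.47% of all genes), and Gata3 and Dlx5 did not pass the rule. Of the 6, Trp63, Tfap2c, Grhl2 and Grhl3 reached 5 CPM only in Cdh1+ Cdh2- cells. The counts in every library are thus partly set by the minimum of 5 CPM.

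Trp63 had the highest ratio between the states at each FGF2 dose, and Grhl2 had the highest with the FGFRi. Trp63 stood at 48.2, 27.2, 25.7, 12.4 and 5.99 CPM in these cells and at 2.23, 1.13, 0.522, 0.0894 and 0.0751 CPM in Cdh1- Cdh2+ cells in the order FGFRi, 0, 0.75, 3 and 12 ng/ml FGF2. Cdh1+ Cdh2- cells held 77.8, 80.7, 79.7, 82.5 and 78.9% of all Trp63 UMIs of a library. The ratio between the states was 21.6-fold (95% interval 15.5 to 31.1) with the FGFRi and 24.2-fold (95% interval 15.0 to 41.7) at 0 ng/ml. Only 3 Trp63 UMIs per library were found in the Cdh1- Cdh2+ cells at 3 and 12 ng/ml. Grhl2 stood at 1.12, 1.86, 2.35, 2.44 and 2.13 CPM in Cdh1- Cdh2+ cells and at 27.2, 25.8, 28.1, 25.0 and 21.7 CPM in Cdh1+ Cdh2- cells, and it was 24.4-fold (95% interval 15.3 to 41.6) higher in the latter with the FGFRi.

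In the FGFRi and 0 ng/ml libraries, Tfap2a had a lower ratio between the states than Trp63 and Grhl2, but at 3 and 12 ng/ml its ratio was higher than that of Grhl2. It stood at 134, 76.4, 69.4, 41.5 and 27.4 CPM in Cdh1+ Cdh2- cells and at 65.5, 13.7, 6.23, 1.58 and 0.876 CPM in Cdh1- Cdh2+ cells in the order FGFRi, 0, 0.75, 3 and 12 ng/ml FGF2. In the Cdh1- Cdh2+ state, the level with the FGFRi was 4.79-fold (95% interval 4.12 to 5.59) that at 0 ng/ml, whereas in Cdh1+ Cdh2- cells it was 1.76-fold (95% interval 1.65 to 1.87). Of the thinned Cdh1- Cdh2+ cells, 39.6% had a Tfap2a UMI with the FGFRi, 9.81% at 0 ng/ml and 1.14% at 12 ng/ml. Within the FGFRi library, the level in Cdh1- Cdh2+ cells over that in Cdh1+ Cdh2- cells was 0.488 for Tfap2a and 0.593 for Gata3, but 0.0463 for Trp63 and 0.0409 for Grhl2, so that the genes did not keep 1 ratio between the states. Some genes of extraembryonic and lateral mesoderm were also highest with the FGFRi. By the rule of size, 4 of 7 of them (Twist1, Prrx1, Acta2 and Tagln) were higher than at 0 ng/ml FGF2, against 6.07% of all genes. Their list of 12 genes summed to 3246, 824, 261, 139.7 and 153 CPM in the order FGFRi, 0, 0.75, 3 and 12 ng/ml FGF2, of which Acta2 made up 1008, 141, 23.0, 14.9 and 15.7 CPM and Tagln 1915, 478, 105, 22.9 and 42.0 CPM, and Foxf1, in contrast, stood at 0.418, 3.89, 4.53, 6.16 and 5.58 CPM. Tbx4 did not exceed 0.0619 CPM. Their part in the Tfap2a level of Cdh1- Cdh2+ cells was not tested.

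In Cdh1+ Cdh2- cells, Dlx5, unlike Tfap2a, was lowest with the FGFRi and highest at 3 ng/ml. From 3 to 12 ng/ml, both were lower at the higher dose. Like Tfap2a, Dlx5 was highest with the FGFRi in Cdh1- Cdh2+ cells. It stood at 2.62, 16.6, 29.0, 46.7 and 20.9 CPM in Cdh1+ Cdh2- cells and at 5.02, 2.06, 2.22, 1.13 and 0.726 CPM in Cdh1- Cdh2+ cells in the order FGFRi, 0, 0.75, 3 and 12 ng/ml FGF2. With the FGFRi it was lower in the Cdh1+ Cdh2- state, where it was 0.522-fold (95% interval 0.354 to 0.761) the level of Cdh1- Cdh2+ cells, and at 3 ng/ml FGF2 it was 41.2-fold (95% interval 29.7 to 58.8) higher there. Tfap2c stood at 41.4, 85.3, 89.3, 103 and 76.5 CPM in Cdh1+ Cdh2- cells, with its highest level at 3 ng/ml, and Grhl3 at 16.9, 21.9, 34.1, 38.8 and 33.3 CPM, also with its highest level at 3 ng/ml. Both had been highest at 0.75 ng/ml over all cells. Gata3 was 3.28-fold (95% interval 2.58 to 4.23) higher in Cdh1+ Cdh2- cells at 0 ng/ml, whereas its ratio at 12 ng/ml was 1.06 (95% interval 0.734 to 1.51), with under 5 CPM in either state. Dlx3 was between 3.64- and 5.88-fold higher in Cdh1+ Cdh2- cells over the 5 libraries. Cells with both cadherins had levels between those of the other states for Trp63, Tfap2a, Tfap2c, Dlx3, Grhl2 and Grhl3 in every library, and they held more UMIs, with medians of 31058, 39233, 32818, 32311 and 31273.

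**Figure D2:**
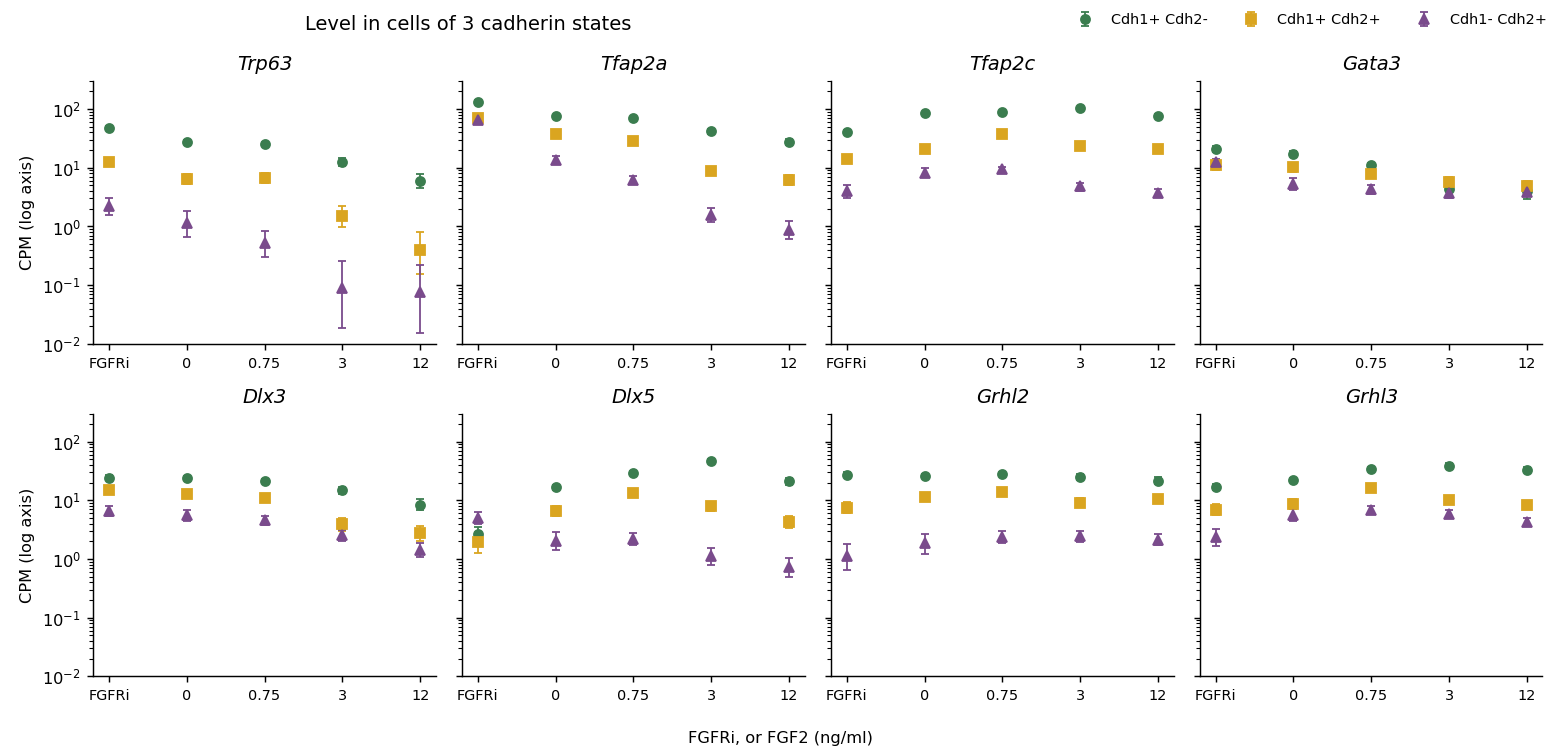
Level of 8 genes in CPM (log axis) in Cdh1+ Cdh2- (circles), Cdh1+ Cdh2+ (squares) and Cdh1- Cdh2+ cells (triangles) of each library, with exact Poisson 95% intervals. Circles lie above triangles for Trp63, Tfap2a, Tfap2c, Gata3, Dlx3, Grhl2 and Grhl3 in every library, for Gata3 at 12 ng/ml within counting error. Dlx5 is reversed with the FGFRi, and Tfap2a in Cdh1- Cdh2+ cells is highest with the FGFRi (65.5 CPM) and lowest at 12 ng/ml (0.876 CPM).

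As the share of Cdh1+ Cdh2- cells was lower at higher doses, levels were compared within this state. Between 0 and 12 ng/ml FGF2, Trp63 was 4.55-fold (95% interval 3.48 to 6.03), Tfap2a 2.79-fold (95% interval 2.46 to 3.18), Gata3 4.25-fold (95% interval 3.08 to 6.02) and Dlx3 2.88-fold (95% interval 2.29 to 3.67) lower at 12 ng/ml, and these were the 4 of 8 genes that passed the rule of size (2.88% of all genes did). Tfap2c differed by 1.12-fold (95% interval 1.03 to 1.21) and Grhl2 by 1.19-fold (95% interval 1.02 to 1.40), while Dlx5 and Grhl3 were 1.26- and 1.52-fold higher at 12 than at 0 ng/ml in these cells. Of the 8 genes, there were thus 4 that were lower at 12 ng/ml within Cdh1+ Cdh2- cells and 4 that differed by less than 2-fold. Between the FGFRi and 0 ng/ml within this state, Tfap2c and Dlx5 were higher at 0 ng/ml (2.24% of all genes were). Within Cdh1- Cdh2+ cells, 5 of 6 genes passed the rule between the FGFRi and 0 ng/ml, with Tfap2a, Gata3 and Dlx5 higher with the FGFRi (12.8% of all genes were) and Tfap2c and Grhl3 higher at 0 ng/ml (6.2%). Dlx5 thus went in opposite directions in these states. From 0 to 12 ng/ml within Cdh1- Cdh2+ cells, Tfap2a, Tfap2c and Dlx3 were lower at 12 than at 0 ng/ml, 3 of the 5 genes with at least 5 CPM (1.91% of all genes were). All 5 reached this minimum only at 0 ng/ml, where they were high, and at 12 ng/ml none exceeded 4.33 CPM. This count is thus partly set by the minimum. In the comparison of the FGFRi library in the same state, Dlx5 reached it only with the FGFRi, and Tfap2c and Grhl3 only at 0 ng/ml. In Cdh1+ Cdh2- cells, Gata3 was below it at 12 ng/ml and Dlx5 with the FGFRi.

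The same was calculated over the 4 cadherin states together. When the levels within the states were kept at those of 0 ng/ml and only the share of UMIs in each state was set to that of 12 ng/ml, the log2 change of Trp63 was -1.06, beside -3.70 observed. When the shares were kept and the levels were set to those of 12 ng/ml, it was -2.37. For Tfap2a, the changes were -2.90 observed, -0.67 with the shares and -1.79 with the levels. Gata3 gave -1.53, -0.49 and -1.50, and Dlx3 gave -2.46, -0.59 and -1.72. For these 4 genes, the levels within states gave the larger change. Tfap2c gave -1.16, -0.94 and -0.15, and Grhl2 gave -1.02, -0.87 and -0.21, so that the shares of the states gave the larger change. Dlx5 gave -1.06, -0.74 and 0.0357, and for Grhl3, at -0.47 observed, the shares gave -0.58 and the levels 0.39. The changes from shares and from levels need not add up to the observed change. The states were called from cadherin UMIs alone, so the mix of cells within a state and their levels cannot be told apart.

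**Figure D3:**
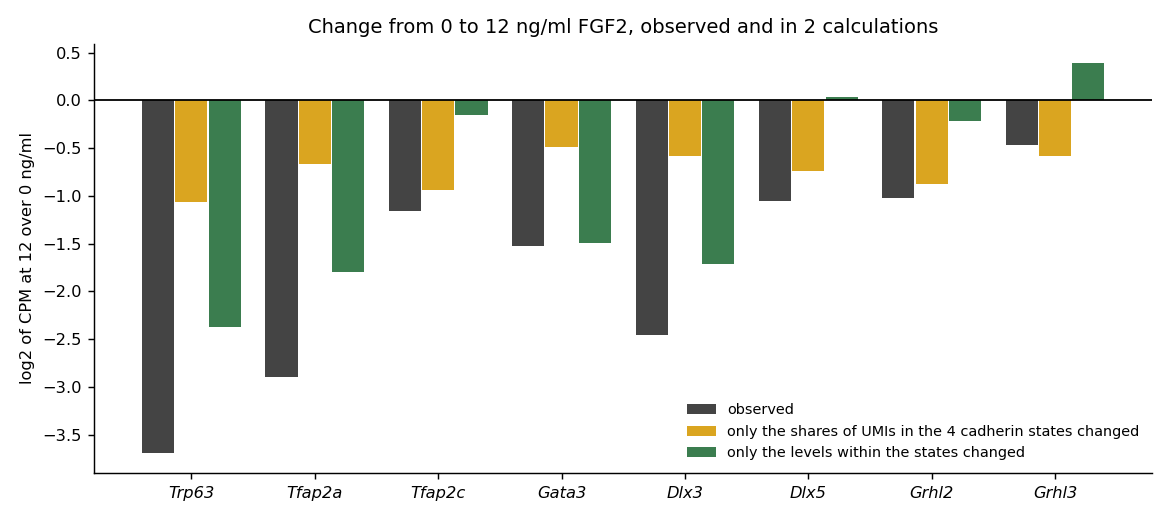
Log2 of the level at 12 over 0 ng/ml FGF2 for 8 genes, as observed, with only the share of UMIs in each cadherin state changed, and with only the levels within the states changed. For Trp63, Tfap2a, Gata3 and Dlx3 the levels-only bars are the longer, and for Tfap2c, Dlx5, Grhl2 and Grhl3 the shares-only bars are. Bars come from 1 library per dose and have no replicate error.

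Cells were then divided by Hand1, which encodes a factor of trophoblast, amnion and extraembryonic and lateral mesoderm. Hand1+ cells (from 1 UMI) made up 48.9, 51.8, 32.0, 29.1 and 28.7% of the cells in the order FGFRi, 0, 0.75, 3 and 12 ng/ml FGF2. They held more UMIs than Hand1- cells in each library, with medians of 26814, 33310.0, 30963, 32044 and 30160.5 against 21944, 26317, 26062, 27324 and 26200.0. Within Cdh1+ Cdh2- cells, Dlx5 stood at 1.97, 31.6, 39.1, 54.0 and 24.1 CPM in Hand1- cells and at 3.56, 5.32, 6.95, 9.82 and 4.75 CPM in Hand1+ cells in the order FGFRi, 0, 0.75, 3 and 12 ng/ml FGF2. It was 5.93-fold (95% interval 4.57 to 7.78), 5.63-fold (95% interval 4.38 to 7.33), 5.49-fold (95% interval 3.56 to 8.94) and 5.08-fold (95% interval 2.53 to 11.9) lower in Hand1+ cells along the FGF2 doses. With the FGFRi, Dlx5 was below 5 CPM in both.

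Grhl3 stood at 17.5, 35.8, 44.1, 43.7 and 36.9 CPM in Hand1- and 16.1, 11.5, 12.4, 14.5 and 15.4 CPM in Hand1+ cells of the Cdh1+ Cdh2- state. It was at least 2-fold lower in Hand1+ cells at each of the 4 FGF2 doses, whereas with the FGFRi the ratio of Hand1+ over Hand1- cells was 0.918 (95% interval 0.719 to 1.17). Gata3 was higher in Hand1+ cells at 0, 0.75 and 3 ng/ml, with 22.6, 14.6, 6.41, 2.50 and 4.44 CPM in Hand1- and 18.1, 19.6, 20.9, 13.6 and 2.37 CPM in Hand1+ cells. It was 3.26-fold (95% interval 2.60 to 4.08) higher in Hand1+ cells at 0.75 ng/ml and 5.42-fold (95% interval 3.10 to 9.51) higher at 3 ng/ml, but 0.799 (95% interval 0.638 to 0.996) times the level of Hand1- cells with the FGFRi and 0.534 (95% interval 0.138 to 1.49) times at 12 ng/ml. Grhl2 differed by less than 2-fold between Hand1+ and Hand1- cells of this state in every library. The Hand1+ cells of this state numbered 213, 358, 284, 63 and 51 in the same order of libraries, so the values at 3 and 12 ng/ml rest on few cells.

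By the rule of size, 1 of 7 genes differed between Hand1+ and Hand1- cells of the Cdh1+ Cdh2- state with the FGFRi, and 3 of 8, 3 of 8, 3 of 8 and 3 of 7 along the FGF2 doses, against 2.11, 4.07, 3.36, 5.47 and 3.87% of all genes. When the states were instead called in cells thinned to 10000 UMIs, the counts were 2, 3, 4, 7 and 3. The shares of all genes under that call are not given, so these counts have no background beside them. By the call without thinning, the 1 gene with the FGFRi was Tfap2c, 2.68-fold (95% interval 2.23 to 3.24) lower in Hand1+ cells. Besides Dlx5 and Grhl3, and Gata3 at 0.75 and 3 ng/ml, Trp63 was 2.26-fold (95% interval 1.92 to 2.66) lower in Hand1+ cells at 0 ng/ml and Tfap2a 2.11-fold (95% interval 1.38 to 3.35) lower at 12 ng/ml. In the Cdh1- Cdh2+ state, Gata3 stood at 9.11, 3.68, 2.91, 1.64 and 1.68 CPM in Hand1- and at 14.2, 7.23, 6.54, 7.02 and 7.47 CPM in Hand1+ cells, and it was 4.44-fold (95% interval 3.09 to 6.49) higher in Hand1+ cells at 12 ng/ml, the dose at which its share over all cells was no higher than in the comparison class with Tbx6. Grhl3 had 1.86, 8.83, 8.64, 7.61 and 5.57 CPM in Hand1- and 2.64, 1.88, 4.10, 3.04 and 2.27 CPM in Hand1+ cells of this state, and was at least 2-fold lower in Hand1+ cells at each FGF2 dose. In this state, 0 of 4, 3 of 5, 2 of 5, 2 of 3 and 2 of 2 genes passed the rule of size in the same order of libraries, against 0.699, 2.65, 1.42, 1.27 and 0.568% of all genes. At 0 ng/ml these were Grhl3 and, higher in Hand1+ cells, Tfap2a (2.20-fold (95% interval 1.64 to 2.97)) and Dlx3 (2.32-fold (95% interval 1.44 to 3.79)), whereas Gata3 did not pass. At 0.75, 3 and 12 ng/ml they were Gata3 and Grhl3. At these doses, Gata3 reached 5 CPM only in Hand1+ and Grhl3 only in Hand1- cells, the state where each was high. The numbers of genes counted, as in 2 of 2, are thus partly set by the minimum of 5 CPM. Over all cells of a library, 2, 3, 3, 6 and 5 genes passed, against 1.09, 3.57, 1.38, 1.46 and 0.651%.

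**Figure D4:**
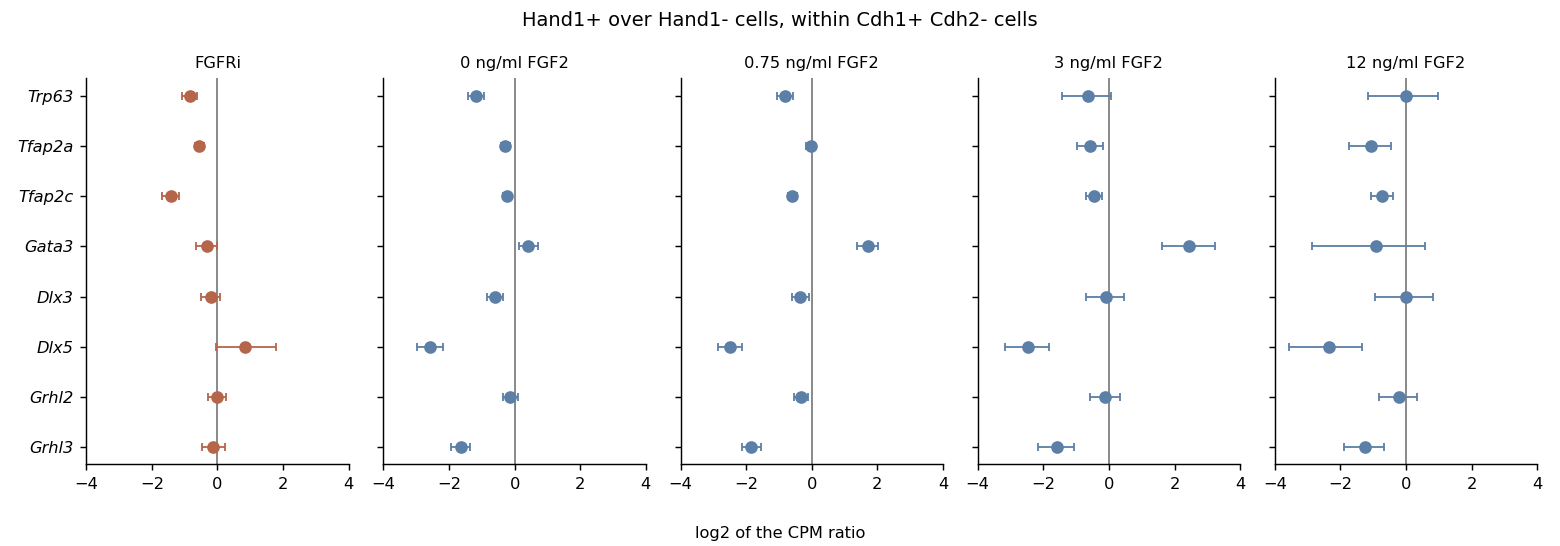
Log2 of the level in Hand1+ over Hand1- cells for 8 genes within Cdh1+ Cdh2- cells of each library, with exact conditional 95% intervals; points left of 0 are lower in Hand1+ cells. Dlx5 and Grhl3 lie left of 0 at each of the 4 FGF2 doses, and Gata3 lies right of 0 at 0, 0.75 and 3 ng/ml.

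To ask whether the genes were found in the same cells, the number of the 10 genes with a UMI was counted in each cell thinned to 10000 UMIs. At least 3 of the genes were found in 33.1, 31.3, 36.6, 30.7 and 21.2% of the Cdh1+ Cdh2- cells in the order FGFRi, 0, 0.75, 3 and 12 ng/ml FGF2, with 95% intervals of 29.4 to 37.0% with the FGFRi and 17.0 to 26.0% at 12 ng/ml. In Cdh1- Cdh2+ cells, the shares were 1.95, 1.25, 1.42, 0.526 and 0.213%. The mean number of genes found in a Cdh1+ Cdh2- cell was 1.98, 1.98, 2.09, 1.85 and 1.43, and no cell held more than 7 at this depth.

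**Figure D5:**
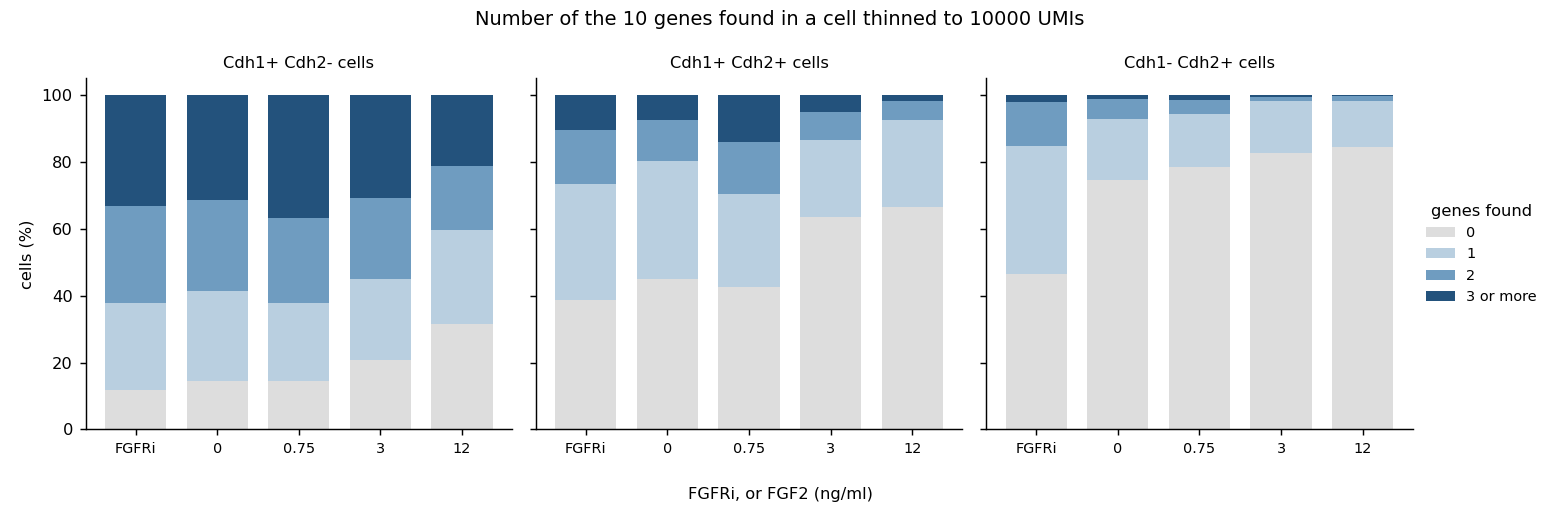
Share of cells in percent with 0, 1, 2 or at least 3 of the 10 genes, in cells of 3 cadherin states thinned to 10000 UMIs, for each library. The darkest parts, at least 3 genes, make up between 21.2 and 36.6% of Cdh1+ Cdh2- cells and at most 1.95% of Cdh1- Cdh2+ cells.

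Co-detection of 2 genes was given as the share of cells with both over the product of their single shares, for the 28 pairs of the 8 genes. A value of 1 is what independent detection would give, and differences between cell states alone raise it. The median over the pairs was 1.40, 1.68, 1.84, 2.66 and 2.99 in the order FGFRi, 0, 0.75, 3 and 12 ng/ml FGF2. Dlx5 and Grhl3 were the pair with the highest value in the FGFRi, 0 and 0.75 ng/ml libraries, at 2.16, 3.27 and 2.69. At 3 and 12 ng/ml, it was Trp63 with Tfap2a, at 5.63 and 9.68, from 25 and 13 cells with both genes. The value of Dlx5 and Grhl3 with the FGFRi came from 9 such cells. At 0.75 ng/ml, 123 of 295 Dlx5-positive cells had a Grhl3 UMI (41.7%), against 12.3% of the other cells. Gata3 with Grhl3 or Dlx5 was the pair with the lowest value at each FGF2 dose, with Gata3 and Grhl3 at 0.711 and 0.615 at 0 and 0.75 ng/ml, and Gata3 and Dlx5 at 0.885 and 0.304 at 3 and 12 ng/ml, the last from 1 cell with both genes. With the FGFRi, the lowest pair was instead Dlx5 and Grhl2 at 0.177, also from 1 cell with both. In that library, Gata3 was above 1 with both genes, at 1.41 with Dlx5 and 1.35 with Grhl3. When cells were thinned to 5000 UMIs, the lowest pair at 12 ng/ml was Trp63 and Gata3, with no cell holding both, and the highest with the FGFRi was Grhl2 and Grhl3, at 2.43. Within Cdh1+ Cdh2- cells alone, the medians were 1.08, 1.21, 1.17, 1.28 and 1.47, and Gata3 and Grhl3 at 0.75 ng/ml had 0.435.

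Likeness of expression patterns was described as Pearson's r of log2(CPM + 1) over 38 groups of cells, formed by library, cadherin state and Hand1 state. Groups from the same library share its depth and its processing, and no test was made. Among pairs of the 8 genes, Tfap2c and Grhl2 (0.891), Trp63 and Dlx3 (0.887), Trp63 and Tfap2a (0.878) and Tfap2a and Dlx3 (0.877) were the most alike. Tfap2c and Grhl3 had 0.834 and Dlx5 and Grhl3 0.807, whereas Gata3 had -0.106 with Grhl3 and -0.0197 with Dlx5. Over the 6639 genes with at least 20 CPM in any library, the genes most like Tfap2a were Ikzf2 (0.970), Cobll1 (0.958) and Npnt (0.954), and those most like Trp63 were Mt1 (0.927), Dag1 (0.926) and Rsrp1 (0.922). Those most like Tfap2c were Espn (0.962), Rab25 (0.960) and Prss8 (0.938), and those most like Grhl2 were Epcam (0.963), Mapk13 (0.960) and Cldn6 (0.959), among which Epcam and Cldn6 encode proteins of epithelial adhesion and tight junctions. For Dlx3 they were Rbpms (0.912), Wnt4 (0.911) and Rsrp1 (0.889). For Dlx5 they were Upk1a (0.849), Lamtor2 (0.804) and Sec22a (0.800), and for Grhl3 Upk1a (0.925), Rab25 (0.896) and Mettl27 (0.862), so that Upk1a, a uroplakin gene, headed both. For Gata3 they were Slc38a4 (0.833), Rbbp7 (0.830) and Plac1 (0.823), of which Plac1 is a placental gene.

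Dlx5 and Dlx3 each have a neighboring family member in the genome, transcribed from the opposite strand. In GENCODE vM21 on GRCm38, Dlx6 lies 9236 bases from Dlx5 on chromosome 6, and Dlx4 lies 15150 bases from Dlx3 on chromosome 11. Dlx6 stood at 0.878, 4.03, 5.89, 5.05 and 2.57 CPM in the order FGFRi, 0, 0.75, 3 and 12 ng/ml FGF2, and like Dlx5 it was lowest with the FGFRi and highest at 0.75 ng/ml. Dlx4 stood at 0.627, 0.933, 0.944, 0.449 and 0.579 CPM, below 1 CPM in all libraries. At 0.75 ng/ml, 77 of 158 Dlx6-positive cells had a Dlx5 UMI (48.7%), against 8.56% of the other cells. Tfap2a, Gata3 and Grhl2 overlap antisense genes that are also counted in the files, and Gata3 overlaps 9230102O04Rik on the same strand, so that its reads in the overlap may have been split or left uncounted.

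Of 19 paralogs in the p53, AP-2, GATA, DLX, grainyhead-like and ELF families, 8 had at least 5 CPM at 0 or 12 ng/ml FGF2, and Gata2, Gata6, Dlx2, Elf1 and Elf4 were at least 2-fold lower at 12 ng/ml, beside 4.69% of all genes. Gata2, which acts with Gata3 in trophoblast, stood at 5.23, 11.9, 4.93, 2.01 and 1.64 CPM in the order FGFRi, 0, 0.75, 3 and 12 ng/ml FGF2, with its highest level at 0 ng/ml rather than with the FGFRi. Dlx2 stood at 6.34, 5.63, 3.25, 0.666 and 0.452 CPM, and Elf1, an ETS factor of many tissues, at 59.1, 39.8, 31.8, 19.7 and 16.1 CPM. Elf2 and Trp53, at 55.4, 53.6, 54.2, 52.7 and 51.1 and 165, 199, 214, 214 and 216 CPM, stayed within 2-fold over the 5 libraries. The median log2 change of the 8 paralogs from 0 to 12 ng/ml was -1.26.

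Genes of surface ectoderm and simple epithelium were listed beside the transcription factors. From 0 to 12 ng/ml FGF2, 10 of the 18 listed genes with at least 5 CPM were lower at 12 ng/ml by the rule of size and none was higher, beside 4.69% of all genes, and the median log2 change was -1.05. Wnt6, a Wnt ligand of surface ectoderm, stood at 172, 126, 106, 50.9 and 42.0 CPM in the order FGFRi, 0, 0.75, 3 and 12 ng/ml FGF2, and Perp, a target of p63 in stratified epithelia, at 128, 60.3, 38.4, 22.6 and 23.8 CPM. Epcam stood at 267, 332, 328, 232 and 218 CPM and Rab25 at 7.86, 28.6, 33.3, 18.5 and 11.5 CPM, with their highest levels at 0 or 0.75 ng/ml like Tfap2c and Grhl2. Between the FGFRi and 0 ng/ml, Krt7, Krt14, Krt15, Krt17, Cldn4 and Perp were higher with the FGFRi by the rule (6.07% of all genes were). Rab25 was higher at 0 ng/ml (2.98% of all genes were). Genes of presomitic and paraxial mesoderm took the opposite course, with all 6 of 6 genes that had at least 5 CPM higher at 12 than at 0 ng/ml by the rule, beside 2.23% of all genes, and their list of 10 genes summed to 5.19, 81.2, 205, 426 and 501 CPM.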

How the data were processed

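Single cells were measured with a 10x 3' kit in 1 library per condition. The authors aligned the reads to mm10 with Cell Ranger (5.0.1 per the file headers) and deposited raw UMI counts per gene and barcode with the cell filters not yet applied. Here, barcodes with at least 2500 genes and at most 10% mitochondrial UMIs were retained. Counts were summed per library or cell state and given as CPM. Ratios carry exact conditional intervals, levels exact Poisson and shares exact Clopper-Pearson 95% intervals. UMIs remove most copies from amplification, and intervals cover counting error only. No p-value was computed, as no condition had a replicate. Genes were counted from 5 CPM in either group and a ratio of 2 on. A gene could thus enter a count only through the group where it was high, and the shares of all genes used the same minimum. For likeness, a pseudocount of 1 was added. The genes and lists were chosen with earlier results of these data known. List genes at 20 CPM or more could be named; those below, and the partner genes of co-detection, were chosen after their values were seen. Promoter sequences came from RefSeq. Scripts were tested on simulated data. Python 3.11.15, SciPy 1.17.1, pandas 2.3.3 and, for TMM factors, edgeR 4.0.16 in R 4.3.3 were used. The alternatives were other cell filters, scalings, minimums, ratios, thinning depths and state calls.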

Additional observations from a re-analysis of the deposited data

Results flagged for a closer look

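Gata3 was singled out because its ratio between Hand1+ and Hand1- cells of the Cdh1+ Cdh2- state went in opposite directions in different libraries, and the difference was not tested. At 3 ng/ml FGF2, Gata3 was 5.42-fold (95% interval 3.10 to 9.51) higher in Hand1+ than in Hand1- cells, at 13.6 against 2.50 CPM. With the FGFRi it was lower in Hand1+ cells, with 18.1 against 22.6 CPM and a ratio of 0.799 (95% interval 0.638 to 0.996). Each value comes from 1 library. The Hand1+ cells of this state numbered only 63 at 3 ng/ml, beside 213 with the FGFRi, and the intervals do not cover differences between cells.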

How the results depend on the processing

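No gene past the rule of size turned direction under the alternatives tried, and scaling by TMM or median-of-ratios factors, between 0.99 and 1.01, moved no count of genes past the rule of size by over 1.5 times. Of 240 log2 changes of single genes under the alternatives, 235 stayed within their counting interval. With at most 5% mitochondrial UMIs, Trp63 had a log2 change of -0.49 from the FGFRi to 0 ng/ml and -4.01 to 12 ng/ml, and Tfap2c had 1.30 and 0.22, the latter against -0.0651 as reported, and with every cell given equal weight Gata3 had -2.19 from the FGFRi to 12 ng/ml. Of 160 counts under the alternatives, 139 stayed within 1.5 times. The others moved with the minimum or the ratio of the rule in most cases. The shares of all genes past the changed rules are not given, so these counts have no background beside them. With a minimum of 20 CPM, 1 gene in place of 2 passed between the FGFRi and 0 ng/ml, 1 in place of 3 from 0.75 to 3 ng/ml, 0 in place of 1 from 3 to 12 ng/ml, 2 in place of 7 from 0 to 12 ng/ml and 2 in place of 4 between the FGFRi and 12 ng/ml. At 0 or 12 ng/ml, only Tfap2a and Tfap2c reached 20 CPM, and both passed from 0 to 12 ng/ml. From 3 to 12 ng/ml, 2 passed with a minimum of 1 CPM and 2 with every cell given equal weight. With a ratio of 1.5, 4 genes passed between the FGFRi and 0 ng/ml, 1 from 0 to 0.75, 6 from 0.75 to 3 and 4 from 3 to 12 ng/ml. Between Hand1 states, a ratio of 1.5 gave 5 in place of 3 over all cells at 0.75 ng/ml. In Cdh1+ Cdh2- cells it gave 2 in place of 1 with the FGFRi and 5 in place of 3 at 0.75 ng/ml, and in Cdh1- Cdh2+ cells 2 in place of 0 with the FGFRi and 5 in place of 3 at 0 ng/ml. In the latter cells with the FGFRi, 1 passed with at most 5% mitochondrial UMIs. In Cdh1+ Cdh2- cells, states called at 10000 UMIs gave 2 in place of 1 with the FGFRi and 7 in place of 3 at 3 ng/ml, and a positive call from 2 UMIs on gave 5 in place of 3 at 12 ng/ml. The number of genes found in at least 10% of the cells of any library was 8 at 10000 UMIs per cell and 2 at 5000. Thinning to 5000 UMIs for co-detection was chosen after the data were seen and left between 14 and 23 pairs at 1.5 or more, beside 10 to 24. Beyond what the alternatives' own construction gives (fewer genes or UMIs counted), the causes were not tested. No paired analysis was possible because each condition had 1 library. Genes below 5 CPM, as Tfap2b and Elf5, were beyond the depth for comparison.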

Other observations

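Other gene lists were counted by the same rule of size between 0 and 12 ng/ml FGF2. Of all genes, 4.69% were lower and 2.23% higher at 12 ng/ml by this rule. Of 8 genes of extraembryonic ectoderm and trophoblast stem cells with at least 5 CPM, Fgfr2 and Ascl2 were lower at 12 ng/ml, with a median log2 change of -0.40 over the list. Of 4 genes of differentiated trophoblast, Hand1, Plac1 and Krt7 were lower and Cited1 was higher. Of 8 genes of amnion and BMP-induced ectoderm, Wnt6, Bambi, Id2 and Msx2 were lower, and the median was -0.62. Of 5 epiblast genes, Pou5f1 was higher and Pou3f1 was lower, and none of 3 germ cell genes passed the rule. Of the neurectoderm and endoderm lists, only 1 gene each had at least 5 CPM, and of these Gata6, in the endoderm list, was lower.

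Partner genes outside the group were examined in the same thinned cells of the 0.75 ng/ml library, the largest. Pax3, a gene of the neural plate border, was found in 419 cells, of which 23.9% had a Dlx5 UMI, against 8.53% of Pax3-negative cells. For Grhl3 the shares were 27.9% and 13.2%. For Gata3 they were 5.25% and 6.38%. In cells with T, the primitive streak gene, Trp63 was found in 1.81%, against 13.5% of cells without it, and Tfap2a in 9.49% against 31.2%. Tfap2c was found in 42.0% of the 157 cells with the germ cell regulator Prdm1, against 27.4% of the others. Of 7 listed germ cell genes, 1 with the FGFRi, 2 at 0 ng/ml and 3 at each higher dose had at least 5 CPM. Dppa3, also on this list, did not exceed 0.0736 CPM in any library.

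Cells with neither cadherin were the fewest, at 6.41, 6.31, 5.76, 4.05 and 5.07% of the cells in the order FGFRi, 0, 0.75, 3 and 12 ng/ml FGF2, and had the fewest UMIs, with medians of 17441, 23069, 21739, 24684 and 22632. Tfap2a stood at 113, 49.5, 41.8, 14.6 and 11.0 CPM in these cells, between its levels in Cdh1+ Cdh2- and Cdh1- Cdh2+ cells in every library.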
